A study of Mus musculus with 38 samples.

Results

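Myeloid cells were taken from the dorsal skin of wild type mice at postnatal day 30 (P30), when the follicles of that skin grow (anagen), and at day 56 (P56), when they rest (telogen), and each age has 2 bulk RNA sequencing libraries. The comparison covered protein coding genes outside the X and Y chromosomes that had 1 FPKM or more (a read count scaled to transcript length and to library size) in at least 2 of these 4 libraries. Of 18913 genes listed in the myeloid table, 15426 were protein coding, 11019 of those met the FPKM limit, and 10704 remained without the sex chromosomes. These 4 libraries are part of a series of 38. Just inside the limit, 143 autosomal protein coding genes had a second highest value of 1.0 to 1.1 FPKM, and 162 lay just outside at 0.9 to 1.0 FPKM. The table also holds 2 myeloid libraries of P56 mutant mice, which carry an oncogenic *Nras* driven by the melanocyte promoter of tyrosinase. These entered the fit to help estimate the spread. They also counted in the filter for the genes tested and in the alternative normalizations. Their own means do not enter the P56 minus P30 difference.

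Skin myeloid cells include resident macrophages, monocytes that enter from blood, dendritic cells, the Langerhans cells of the epidermis, and granulocytes. Macrophages clear dead cells, make complement and growth factors, and answer interferons and microbial products with cytokines and chemokines. They lie close to hair follicles, whose cycle of growth and rest changes the surrounding dermis, fat and vessels.

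The gate used to sort these cells and the number of animals behind a library are not stated in the labels or methods read here. The methods describe sorted cells taken as biological replicates, in a larger number per group than the 2 libraries analysed here, and the labels do not tie a library to an animal. Each p-value rests on the spread between these libraries. FPKM sums of the 4 libraries ran from 829591 to 845885, and 11054 to 11421 genes reached 1 FPKM. The table holds no read totals, which leaves sequencing depth unknown. The P30 libraries differed from each other by a median of 0.217 on the log2(FPKM + 1) scale over the members, and the P56 libraries by 0.0870. Pearson correlations across the members were 0.9295 to 0.9345 between wild type P30 and wild type P56 libraries. They were higher between wild type P30 and mutant P56 libraries, at 0.9579 to 0.961, and lowest between wild type and mutant P56 libraries, at 0.9055 to 0.9061. Why the wild type P56 libraries stood apart was not tested. The Y-linked genes *Ddx3y*, *Kdm5d*, *Eif2s3y* and *Uty* were at 0 in all 4 libraries. *Xist* was at 24.4 and 26.7 FPKM at P30 and 36.9 and 35.1 FPKM at P56. These 4 Y-linked transcripts were thus not seen at either age, while 2 other protein coding genes placed on Y met the FPKM limit.

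The myeloid label held at both ages. All 16 macrophage markers and all 11 monocyte markers were members. The macrophage markers summed to 6912 and 7199 FPKM at P30 and to 21510 and 21250 FPKM at P56, and without *Lyz2* to 6901 and 7187 FPKM against 12424 and 12371 FPKM. *Adgre1*, the gene of the macrophage antigen F4/80, was at 171 and 211 FPKM at P30 and 281 and 286 FPKM at P56, a difference of 0.58 that was under the 2-fold limit. *Itgam*, which encodes CD11b, was at 22.4 and 16.6 FPKM against 33.1 and 33.7 FPKM, a difference of 0.76, also under it. The 16 neutrophil markers summed to 654 and 610.5 FPKM at P30 and 340 and 344 FPKM at P56, while 3 of them, *Elane*, *Mpo* and *Ly6g*, did not exceed 0.36 FPKM in any of the 4 libraries.

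Transcripts of mast cells and of other cell types were present and most were lower at P56. Mast cells are themselves of the myeloid lineage, and whether the sort aimed to include them is not known. In bulk samples fewer cells of a type and less RNA per cell cannot be told apart. The 11 mast cell markers summed to 912 and 952 FPKM at P30 and to 64.2 and 60.0 FPKM at P56, and all 10 that were members fell. *Mcpt4*, a mast cell chymase, was at 377 and 307 FPKM at P30 and 17.5 and 14.8 FPKM at P56, and fell by 4.32 ± 0.13 on the log2(FPKM + 1) scale (SE, adjusted p = 6.5e-06). *Cpa3*, the mast cell carboxypeptidase, was at 197 and 252 FPKM against 16.1 and 17.3 FPKM. The 19 markers of T, NK and innate lymphoid cells summed to 354 and 350 FPKM at P30 and 91.2 and 90.6 FPKM at P56, and 12 of 17 members fell, with none higher. *Il7r*, a survival receptor of lymphoid cells, went from 123 and 129 FPKM to 13.4 and 12.3 FPKM, whereas *Cd4* was at 13.9 and 11.6 FPKM against 23.8 and 22.1 FPKM.

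The 18 hair matrix and shaft genes listed summed to 20.7 and 29.0 FPKM at P30 and 1.08 and 1.34 FPKM at P56. Their 4 members fell, and the inner root sheath keratins *Krt25*, *Krt27* and *Krt71* were listed at 0 in both P56 libraries. Of 9 keratinocyte marker members, 4 fell and 1, *Krt15*, was higher, a call lost when the libraries were rescaled. Of 3 erythroid marker members 2 fell, the hemoglobin gene *Hba-a2* from 11.7 and 14.4 FPKM to 3.38 and 3.80 FPKM. Fibroblast markers summed to 394 and 514 FPKM against 382 and 388 FPKM, and melanocyte markers to 24.8 and 28.0 FPKM against 21.58 and 22.95 FPKM. The part of mast cells and of these other cell types in the results that follow was not tested.

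**Figure D1:**
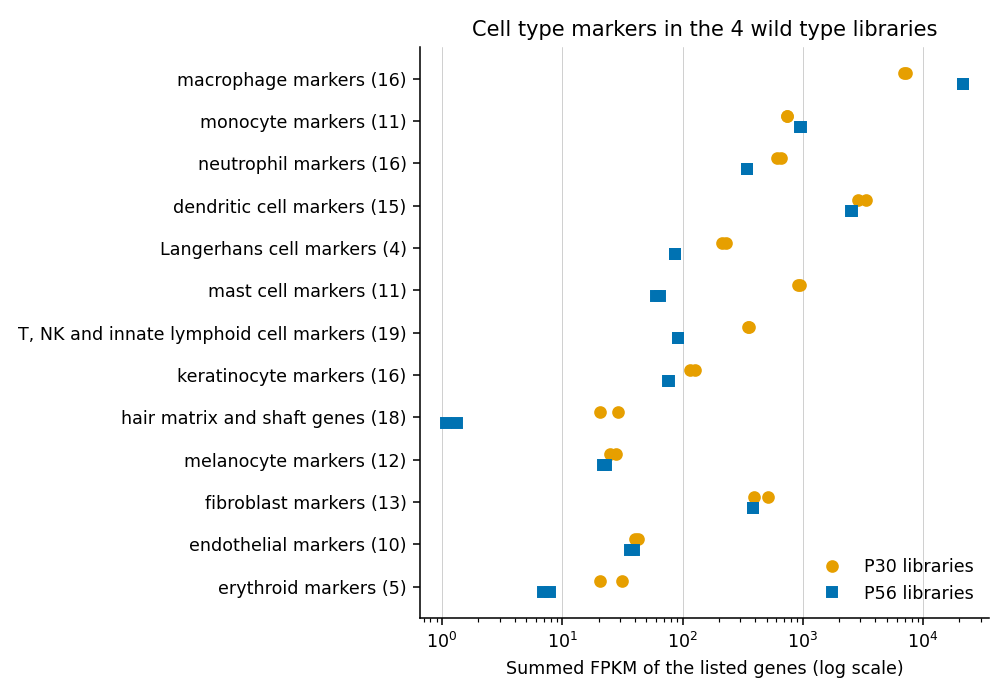
Summed FPKM of each marker list (log scale, number of listed genes in brackets) in the 2 P30 libraries (circles) and the 2 P56 libraries (squares). Mast cell and hair shaft sums are far lower at P56, macrophage sums are higher, and dendritic cell, endothelial and fibroblast sums lie close together.

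Between P30 and P56, 798 members rose and 709 fell by at least 2-fold at an adjusted p under 0.05 (limma, Benjamini-Hochberg over 12034 genes tested), which is 7.46% and 6.62% of the members. The counts given for each gene list stand beside these shares. The falls were the larger changes. A change of 2 or more on the log2 scale was found for 188 genes that fell and 22 that rose, and a change of 3 or more for 52 that fell and 1 that rose. The median member was 0.15 higher at P56. Rescaling the libraries by their median ratio lowered that median by 0.11 and changed the split to 539 higher and 844 lower, and quantile normalization gave 589 and 820. All 539 were among the 798 genes, and the 844 included all 709. Of the members, 47.1% had both P56 libraries above both P30 libraries and 29.7% had both below.

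**Figure D2:**
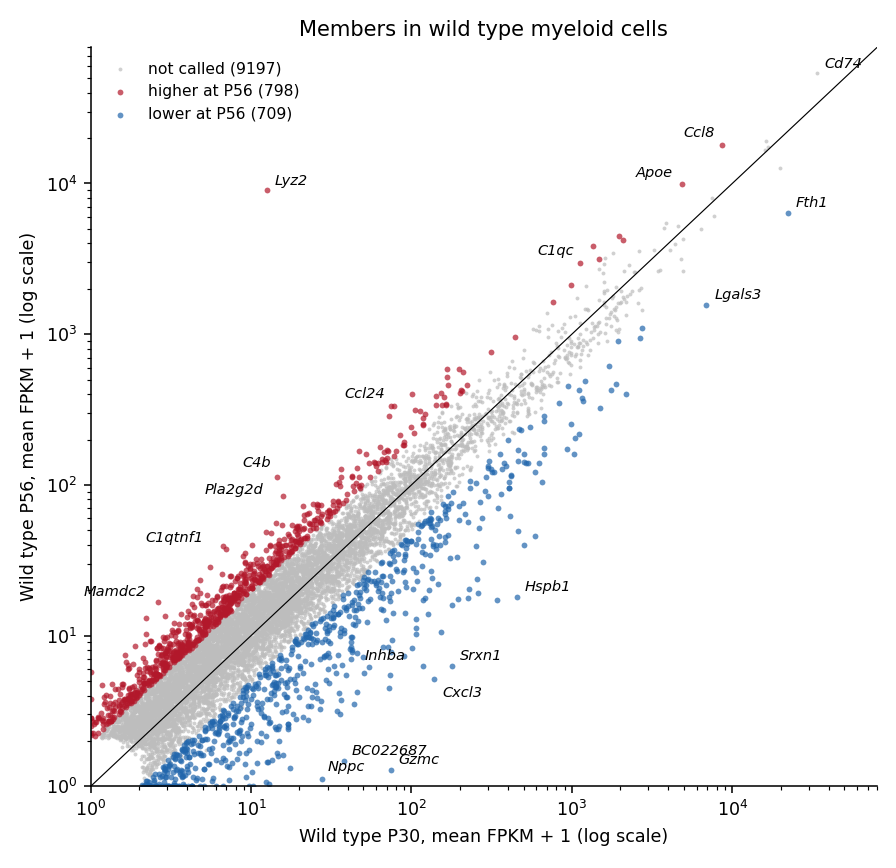
Mean FPKM + 1 of each member at P30 (x axis) and P56 (y axis), both on log scales, with members called higher at P56 in red, lower in blue and the others in gray. *Lyz2* lies far above the diagonal of equal levels, and the blue points spread farther from it than the other red ones.

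The largest rise was that of *Lyz2* (ENSMUSG00000069516.7, GRCm38 chromosome 10, 117277331 to 117282321, minus strand), the lysozyme gene of macrophages and granulocytes. It was at 10.8 and 12.4 FPKM at P30 and 9086 and 8881 FPKM at P56, a rise of 9.48 ± 0.09 (SE, adjusted p = 7.76e-08), and at 19.5 and 18.2 FPKM in the P56 mutant libraries. *Lyz1*, its near-identical neighbor, was at 1353 and 1804 FPKM at P30 and 1559 and 1561 FPKM at P56. Reads that match both copies are divided between them by the quantification, so the single values are uncertain. The pair together came to 1364 and 1817 FPKM at P30 and 10645 and 10442 FPKM at P56, so their sum was also higher in both P56 libraries. In CD45+ cells *Lyz2* went the other way, at 6969 and 7412 FPKM at P30 and 2335 and 2241 FPKM at P56. *Lyz1* was there at 714 and 766 FPKM against 273 and 261 FPKM. Why *Lyz2* was so low in the P30 myeloid libraries was not tested.

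The 10 largest rises and falls were taken among called genes with a mean of 5 FPKM or more at the higher age. After *Lyz2*, the other 9 rises were in lower-level genes. *C4b*, a complement component, went from 13.6 and 13.6 FPKM to 115 and 110 FPKM, a rise of 2.96 ± 0.10. *Mamdc2* rose by 2.68 ± 0.15, from 1.87 and 1.35 FPKM to 15.7 and 15.7 FPKM, and *C1qtnf1*, a secreted protein with a C1q-like domain, by 2.57 ± 0.13. *Gbp2b*, an interferon-induced GTPase, rose by 2.58 ± 0.17 and the metalloprotease gene *Adam33* by 2.47 ± 0.26. *Pla2g2d*, a secreted phospholipase of lymphoid tissue myeloid cells, was at 11.8 and 17.7 FPKM against 83.3 and 82.7 FPKM (2.44 ± 0.18). *Mmp9*, a gelatinase, rose by 2.37 ± 0.15, *Gm10134* by 2.34 ± 0.26, and *Cxcl13*, a B cell attractant, by 2.30 ± 0.36 from 0.15 and 1.60 FPKM to 7.79 and 7.21 FPKM.

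*Gzmc* (ENSMUSG00000079186.2, chromosome 14, 56231441 to 56234656, minus strand), a granzyme of cytotoxic lymphocytes, had the largest fall. It was at 74.2 and 72.8 FPKM at P30 and 0.36 and 0.20 FPKM at P56, and fell by 5.87 ± 0.10 (SE, adjusted p = 1.86e-06), alongside the lower lymphoid markers. *Srxn1*, which repairs oxidized peroxiredoxins, was at 163 and 194 FPKM against 5.25 and 5.38 FPKM (it fell by 4.82 ± 0.11). *BC022687* fell by 4.69 ± 0.18, the neutrophil attractant *Cxcl3* fell by 4.67 ± 0.29, and the small heat shock protein *Hspb1* by 4.65 ± 0.11. *Nppc*, which encodes C-type natriuretic peptide, went from 26.8 and 26.5 FPKM to 0.16 and 0.09 FPKM. *Inhba*, the activin A subunit, fell by 4.21 ± 0.16 and *Oasl1*, an interferon-induced inhibitor of *Irf7* translation, by 3.83 ± 0.17. The remaining genes of the 10, *Mcpt4* and *Tpsb2*, are mast cell proteases.

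Among genes of resident, alternatively activated macrophages, more rose than fell. Of 16 members of that list, 8 were higher and 2 lower, with a median difference of 1.04 against 0.15 over all members. *Cd163*, the hemoglobin scavenger receptor, was at 49.2 and 42.5 FPKM at P30 and 164 and 167 FPKM at P56, a rise of 1.83 ± 0.11 (SE, adjusted p = 8.72e-05). *Mrc1*, the mannose receptor CD206, went from 123 and 119 FPKM to 291 and 297 FPKM, and *Folr2*, a folate receptor of perivascular macrophages, from 323 and 300 FPKM to 780 and 751 FPKM. *Cd209f*, a C-type lectin, rose by 1.82 ± 0.08, and *Ccl24*, an eosinophil attractant made by such macrophages, by 2.16 ± 0.13. The members that fell were *Timd4*, a phosphatidylserine receptor, by 1.68 ± 0.11 and *Pdcd1lg2*.

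Complement genes were called in that direction alone. Of 14 members 7 rose and none fell, and the median was 1.04. *C1qc*, a chain of the C1q recognition molecule, was at 1054 and 1189 FPKM at P30 and 2991 and 2964 FPKM at P56 (1.41 ± 0.09), and *C1qa* was at 997 and 979 FPKM against 2122 and 2116 FPKM (1.1 ± 0.07). *C1qb* differed by 0.99 ± 0.08, just under the limit. The alternative pathway factor *Cfb* rose by 1.45 ± 0.12. After rescaling 6 of the 14 were called and *C1qa* was no longer among them.

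Among 16 scavenging and dead cell uptake genes, 7 rose and 3 fell. *Mertk*, the receptor kinase that drives uptake of apoptotic cells, was low at 0.96 and 1.71 FPKM at P30 and 8.37 and 8.17 FPKM at P56 (2.01 ± 0.18). Its bridging ligand *Gas6* went from 110 and 123 FPKM to 278 and 275 FPKM, and *Stab1*, a scavenger receptor, rose by 1.62 ± 0.08. *Itgav*, an integrin chain that also serves uptake, fell by 1.85 ± 0.14, and *Cd36*, a receptor for oxidized lipid, by 1.93 ± 0.08.

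**Figure D3:**
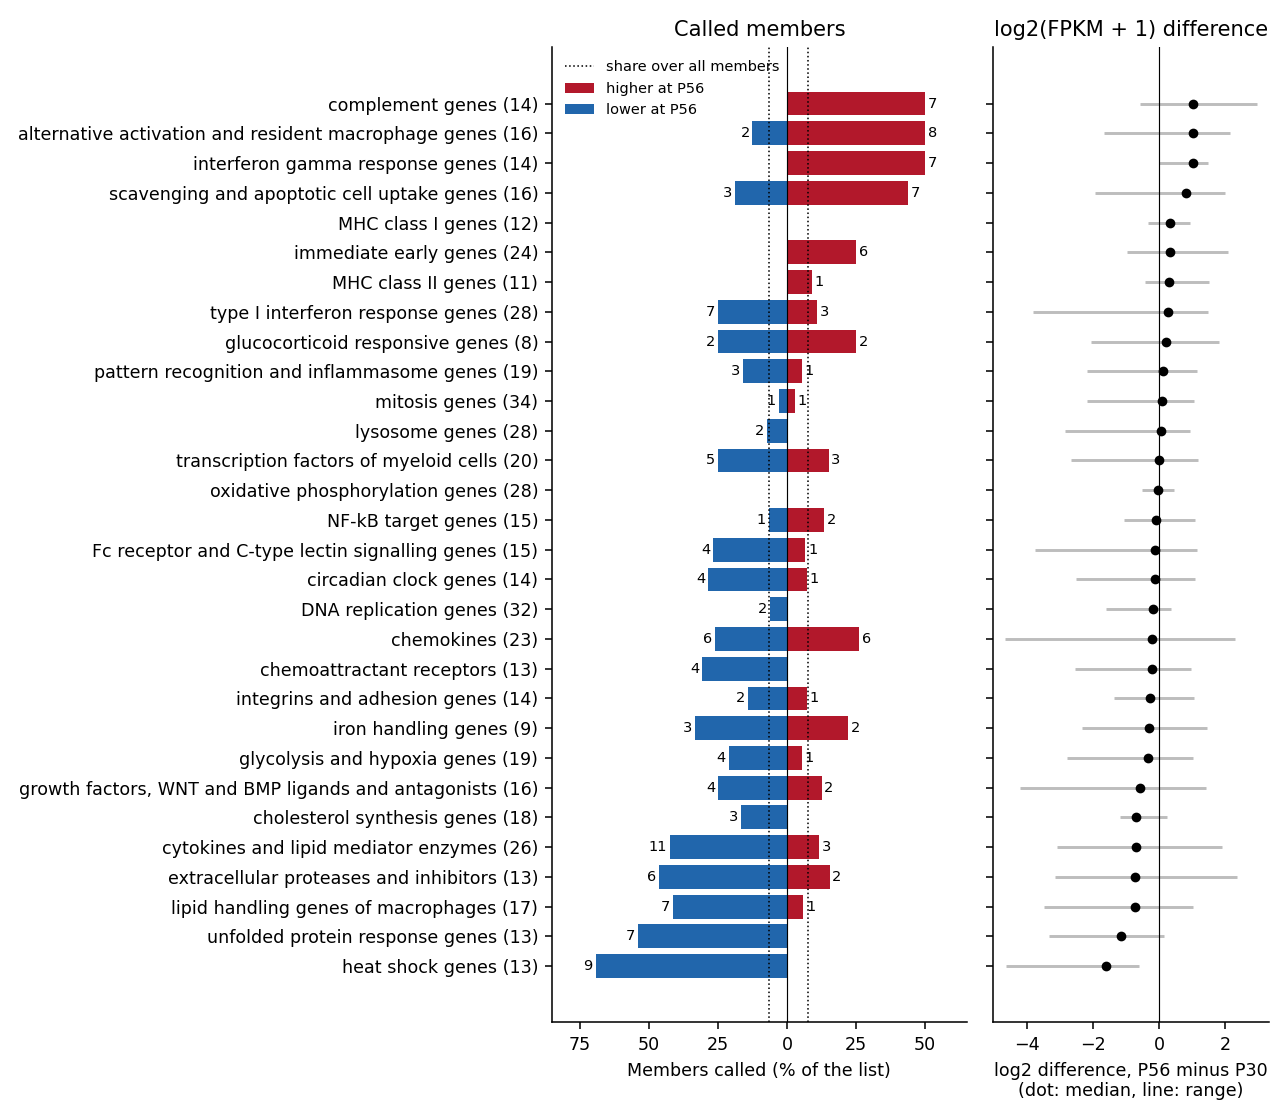
Left, share of each functional list called higher (red) or lower (blue) at P56, with the number of called genes beside each bar and dotted lines at the shares over all members. Right, median (dot) and range (line) of the log2(FPKM + 1) difference, from heat shock genes at the bottom to complement genes at the top.

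Chemokines split evenly, with 6 of 23 members higher and 6 lower. *Ccl8*, which attracts monocytes and T helper type 2 cells, was among the most abundant transcripts, at 8075 and 9272 FPKM at P30 and 18237 and 17872 FPKM at P56 (1.06 ± 0.10), a call lost on rescaling and without P30 replicate 1. *Pf4*, platelet factor 4, which tissue macrophages also make, went from 1979 and 1933 FPKM to 4493 and 4431 FPKM. *Cxcl14* rose by 1.96 ± 0.17 and *Ccl11* (eotaxin) by 2.20 ± 0.25. The neutrophil attractants *Cxcl1* and *Cxcl3* moved the other way. *Cxcl1* was at 779 and 558 FPKM at P30 and 153 and 165 FPKM at P56, and *Cxcl3* at 185 and 90.6 FPKM against 4.14 and 4.09 FPKM. *Ccl5*, which draws T cells and is also made by them, fell by 3.45 ± 0.09, from 257 and 255 FPKM to 21.1 and 24.2 FPKM. Of 13 attractant receptors 4 fell and none rose, with *Cxcr6*, *Ccr7* and *Ccr1* among those that fell.

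Of 26 cytokines and lipid mediator enzymes, 11 fell and 3 rose, and the median was -0.71. *Il1b*, the inflammasome-processed interleukin, was at 3097 and 2212 FPKM at P30 and 951 and 938 FPKM at P56, and fell by 1.47 ± 0.15 (SE, adjusted p = 0.000605). *Il1a* fell by 2.35 ± 0.12, and their antagonist *Il1rn* went down with them, from 593 and 660 FPKM to 138 and 139 FPKM. *Il10*, which restrains macrophage activation, was at 95.1 and 82.5 FPKM against 26.7 and 25.6 FPKM. *Il6*, an inflammatory cytokine, fell by 1.36 ± 0.24, a call lost without P30 replicate 1. *Osm* (oncostatin M), a JAK-STAT ligand, was at 108 and 123 FPKM against 53.6 and 52.4 FPKM (it fell by 1.102 ± 0.09). *Areg*, an EGF receptor ligand that mast cells and innate lymphoid cells also make, fell by 3.08 ± 0.09. *Tnf* was at 120 and 97.4 FPKM against 72.8 and 69.2 FPKM, a difference of -0.60 ± 0.11 that was under the limit. *Tgfb1* and *Alox15*, which makes lipid mediators that end inflammation, rose by 1.43 ± 0.10 and 1.91 ± 0.28.

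The genes of microbial sensing showed no common direction. Of 19 pattern recognition and inflammasome members 1 rose and 3 fell, and the median was 0.11. *Cd14*, the lipopolysaccharide coreceptor, was at 1038 and 856 FPKM at P30 and 449 and 460 FPKM at P56 (it fell by 1.05 ± 0.10, not called after quantile normalization or without P30 replicate 1). Among Fc receptor and C-type lectin genes 4 of 15 fell and 1 rose. *Clec4d* and *Clec4e*, a receptor pair for fungal and mycobacterial glycolipids, fell by 3.76 ± 0.11 and 2.68 ± 0.09, *Clec4d* from 289 and 231 FPKM to 18.3 and 18.1 FPKM. NF-kB targets had 2 of 15 higher and 1 lower, and after rescaling 0 higher and 2 lower.

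Interferon-linked genes were described as 2 lists, and the difference between the lists was not tested. Interferons act through signaling factors that bind the interferon-stimulated response element of promoters, and type I and gamma interferon share part of their targets. Of 14 interferon gamma response members 7 rose and none fell (median 1.03), whereas of 28 type I response members 7 fell and 3 rose (median 0.28). *Irf1*, the transcription factor that gamma interferon induces, was at 97.7 and 126 FPKM at P30 and 310 and 309 FPKM at P56 (1.47 ± 0.12). The antiviral genes *Rsad2* (viperin) and *Isg15*, a ubiquitin-like modifier, fell. *Rsad2* went from 47.4 and 50.2 FPKM to 6.13 and 6.24 FPKM, and *Isg15* from 91.5 and 83.6 FPKM to 26.3 and 24.9 FPKM. *Cxcl10*, on both the type I list and the chemokine list, went from 422 and 394 FPKM to 58.5 and 64.2 FPKM. *Oas2* went against these, with a rise of 1.27 ± 0.15. *Ifnb1*, interferon beta itself, was at 20.9 and 12.2 FPKM at P30 and 0.24 and 0.41 FPKM at P56 (it fell by 3.68 ± 0.23), a gene picked with its values in view.

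Promoters of genes that moved in opposite directions held the same motif letters, and so did those of uncalled genes. The response element core (GAAA, any 2 bases, GAAA) was searched on both strands of RefSeq promoter windows (GRCm38.p6, 250 bases before to 50 after a start). It was present in 3.44% of 32851 windows, and 3.99% of 27025 gene symbols held it in any of their windows. Of the type I members 21 of 28 matched a RefSeq symbol with a window, and 13 of them held it, including 5 of the 7 that fell. Of the interferon gamma members 11 of 14 had a window and 9 held it, including 3 of the 4 that rose and had a window. Among uncalled members with a window, 6 of 7 interferon gamma and 8 of 14 type I genes held it. The stretches below are 70 bases upstream of a start, each from the first window of its gene with a match there. For *Irgm2* that start lies inside the gene, which spans 58199618 to 58222782. The stretches are shown to set 3 genes that fell beside 3 that rose, with core matches in capitals on either strand. They lie at chr4:156200845-156200914 (minus strand, *Isg15*), chr12:26456533-26456602 (minus, *Rsad2*), chr19:34640774-34640843 (plus, *Ifit1*), chr3:142620574-142620643 (plus, *Gbp2*), chr3:142530253-142530322 (plus, *Gbp7*) and chr11:58214883-58214952 (plus, *Irgm2*).
Isg15: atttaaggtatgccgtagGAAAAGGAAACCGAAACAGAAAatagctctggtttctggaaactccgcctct
Rsad2: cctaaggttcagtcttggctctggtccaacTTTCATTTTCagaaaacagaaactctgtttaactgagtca
Ifit1: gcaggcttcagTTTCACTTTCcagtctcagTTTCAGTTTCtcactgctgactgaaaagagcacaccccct
Gbp2: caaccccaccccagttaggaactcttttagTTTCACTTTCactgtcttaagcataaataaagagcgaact
Gbp7: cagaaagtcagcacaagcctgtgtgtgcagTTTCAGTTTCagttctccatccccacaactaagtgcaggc
Irgm2: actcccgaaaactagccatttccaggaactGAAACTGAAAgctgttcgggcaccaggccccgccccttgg
The *Isg15* stretch holds 3 overlapping matches and that of *Ifit1* holds 2, while the other 4 hold 1 each. *Ifit1* fell from 34.5 and 47.7 FPKM to 7.02 and 7.82 FPKM. The guanylate-binding GTPases *Gbp2* and *Gbp7* rose from 30.0 and 29.0 FPKM to 66.3 and 67.1 FPKM and from 13.1 and 17.9 FPKM to 35.1 and 36.0 FPKM. *Irgm2*, an immunity-related GTPase, rose from 3.31 and 2.4 FPKM to 7.37 and 6.70 FPKM, a call lost on rescaling, after quantile normalization and without P30 replicate 2. *Gbp7* lost its call without P30 replicate 1.

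Heat shock genes had the lowest median of the functional lists. These chaperones keep proteins folded and are switched on by heat and other stress. Of 13 members 9 fell and none rose, the median was -1.60, and all 13 had both P56 libraries below both P30 libraries, against 29.7% of all members. *Hspb1* was at 457 and 451 FPKM at P30 and 15.8 and 18.5 FPKM at P56, *Hsph1* at 102 and 97.9 FPKM against 7.17 and 7.26 FPKM, and *Hsp90aa1* at 2346 and 2027 FPKM against 393 and 411 FPKM. *Dnajb1* fell by 1.996 ± 0.093 and the mitochondrial pair *Hspd1* and *Hspe1* by 1.81 ± 0.07 and 2.09 ± 0.13. *Hspa1b*, the inducible HSP70, fell least of the 9, by 1.01 ± 0.09, and lost its call after quantile normalization and without P30 replicate 2 or P56 replicate 1. Of the immediate early genes, another group that stimuli switch on within minutes, 6 of 24 rose and none fell, or 4 and 1 after rescaling. *Egr1* was at 145 and 157 FPKM at P30 and 406 and 412 FPKM at P56, and *Socs3*, the feedback inhibitor of cytokine signaling, at 77.7 and 76.3 FPKM against 329 and 332 FPKM.

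Genes of the unfolded protein response, by which the endoplasmic reticulum adds chaperones, were also lower, with 7 of 13 members lower, none higher and a median of -1.15. *Hspa5* (BiP), its main chaperone, was at 1755 and 2034 FPKM at P30 and 461 and 471 FPKM at P56, and fell by 2.02 ± 0.09 (SE, adjusted p = 2.56e-05). *Chac1* and *Trib3*, induced by the ATF4 arm, fell by 3.35 ± 0.16 and 2.92 ± 0.16, and *Chac1* was listed at 0 in both P56 libraries. The secreted factors *Manf* and *Creld2* fell by 1.51 ± 0.16 and 1.15 ± 0.14, the latter not called without P30 replicate 2.

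The known elements of these pathways were found in part of the promoters. The heat shock element (GAA, any 2 bases, TTC, any 2 bases, GAA, both strands) was in 0.603% of windows and 0.662% of gene symbols. It was in 3 of the 10 heat shock members that had a window, *Hsph1*, *Hspe1* and *Hspd1*. The ER stress element (CCAAT, any 9 bases, CCACG, both strands) was in 0.119% of windows and 0.137% of gene symbols. It was in 2 of 11 unfolded protein response members with a window, *Hspa5* and *Creld2*. The stretches are shown because they pair these letters with genes that fell, at chr1:55088035-55088104 (plus strand, *Hspe1*), chr2:34771999-34772068 (plus, *Hspa5*) and chr15:88819494-88819563 (plus, *Creld2*), with matches on either strand in capitals.
Hspe1: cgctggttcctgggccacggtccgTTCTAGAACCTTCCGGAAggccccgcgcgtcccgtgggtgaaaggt
Hspa5: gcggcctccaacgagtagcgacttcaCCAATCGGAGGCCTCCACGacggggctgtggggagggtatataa
Creld2: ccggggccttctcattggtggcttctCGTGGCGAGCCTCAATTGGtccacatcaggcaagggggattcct
The capitals of *Hspe1* hold 2 overlapping matches on opposite strands. A match describes the letters only.

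Several genes that handle oxidants and iron fell. Besides *Srxn1*, *Slc7a11*, the cystine carrier for glutathione synthesis, went from 53.2 and 53.8 FPKM to 5.14 and 5.24 FPKM, *Txnrd1* (thioredoxin reductase) fell by 2.41 ± 0.10, *Gclm* by 1.43 ± 0.11 and *Nqo1* by 1.78 ± 0.16. These 4 genes were picked with their values in view. Of 9 iron handling members 3 fell and 2 rose. *Hmox1*, heme oxygenase, was at 1076 and 1152 FPKM at P30 and 228 and 208 FPKM at P56 (it fell by 2.35 ± 0.08). *Fth1*, the ferritin heavy chain, was at 23930 and 20522 FPKM against 6252 and 6462 FPKM, and the iron exporter *Slc40a1* fell by 1.45 ± 0.15. The transferrin receptor *Tfrc* was at 11.2 and 4.79 FPKM against 21.2 and 22.9 FPKM, and its call of a rise was lost when P30 replicate 2 or either P56 library was left out.

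Lipid-laden macrophage genes fell in 7 of 17 members and rose in 1. *Spp1* (osteopontin; chromosome 5, 104435118 to 104441050, plus strand), a secreted ligand of integrins and CD44, was at 201 and 255 FPKM at P30 and 20.4 and 18.5 FPKM at P56, and fell by 3.48 ± 0.12 (SE, adjusted p = 8.69e-06). *Plin2*, which coats lipid droplets, was at 1000 and 1096 FPKM against 203 and 205 FPKM, *Lgals3* (galectin 3) at 6503 and 7295 FPKM against 1582 and 1558 FPKM, and *Fabp4* fell by 1.97 ± 0.10. *Pparg*, the lipid-sensing nuclear receptor, went from 63.7 and 66.8 FPKM to 15.9 and 17.8 FPKM. *Apoe*, the lipid carrier, moved the other way, at 4436 and 5323 FPKM against 9991 and 9705 FPKM (1.02 ± 0.11), and lost its call on rescaling, after quantile normalization and without P30 replicate 1 or P56 replicate 1. *Trem2*, the lipid receptor of such macrophages, was at 19.95 and 26.08 FPKM against 23.8 and 27.6 FPKM (0.16 ± 0.14, adjusted p = 0.37), and the SPP1 receptor gene *Cd44* was at 245 and 241 FPKM against 163 and 172 FPKM (-0.54 ± 0.07, under the limit). Lysosome genes stood near 0 (median 0.07), with 2 of 28 lower against 6.62% of all members. *Gpnmb* was among them and fell by 2.85 ± 0.10. Cholesterol synthesis genes had a median of -0.69, with 3 of 18 lower, and 8 after rescaling.

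Of 31 listed growth factors, WNT and BMP ligands and antagonists, 16 were members, 4 of them lower and 2 higher. *Inhba* went from 97.7 and 137 FPKM to 5.25 and 5.31 FPKM. *Gdf15*, a stress-induced TGF-beta family member, went from 442 and 483 FPKM to 47.2 and 49.4 FPKM, *Wnt11* from 127 and 136 FPKM to 25.2 and 26.1 FPKM, and *Vegfa*, which drives vessel growth, from 16.0 and 14.9 FPKM to 1.42 and 2.91 FPKM. *Igf1*, which macrophages supply to neighboring tissue, rose from 162 and 166 FPKM to 345 and 344 FPKM (1.07 ± 0.07, not called after rescaling). *Wnt7b* and *Wnt10a* were not members, with no value above 0.34 FPKM. Of 13 extracellular proteases, their inhibitors and related genes, 6 fell, the metalloprotease *Mmp19* by 3.16 ± 0.12, the protease inhibitor *Serpinb2* by 2.53 ± 0.18 and the macrophage elastase *Mmp12* from 321 and 275 FPKM to 82.8 and 83.1 FPKM, and 2 rose.

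**Figure D4:**
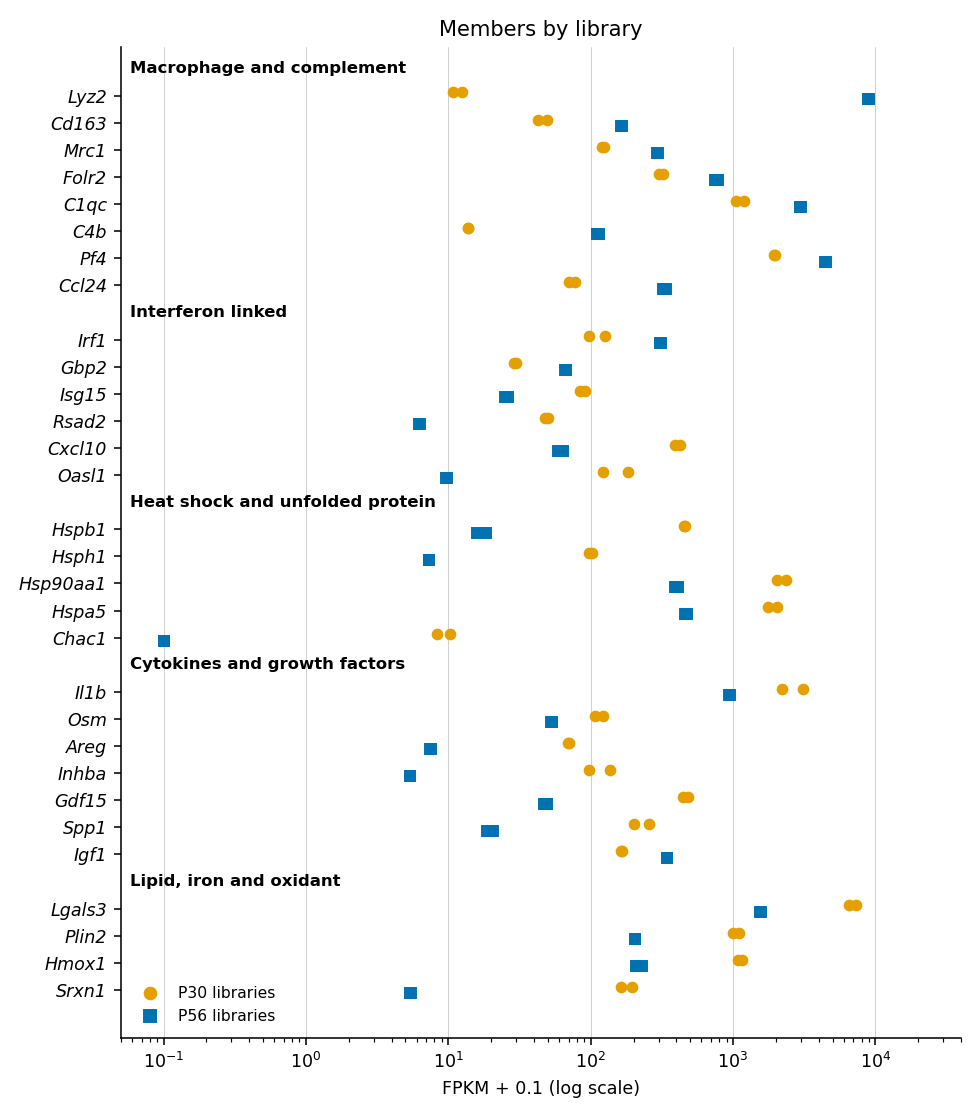
FPKM + 0.1 (log scale) of 30 named members in the 2 P30 libraries (circles) and the 2 P56 libraries (squares). The P30 and P56 libraries of a gene do not overlap for any gene shown, and *Chac1* is listed at 0 in both P56 libraries.

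Few antigen presentation genes reached the 2-fold limit. Both P56 libraries were above both P30 libraries for 9 of 11 class II and 9 of 12 class I members, against 47.1% of all members. Of 11 MHC class II members 1 was called higher, against 7.46% of all members, and none of 12 class I members was called. The gene called was the class II transactivator *Ciita*, from 18.2 and 25.6 FPKM to 64.4 and 64.0 FPKM (1.53 ± 0.16). The invariant chain *Cd74* was at 30652 and 36819 FPKM at P30 and 54734 and 52603 FPKM at P56 (0.68 ± 0.12), and *H2-Ab1* at 15675 and 16734 FPKM against 19800 and 18508 FPKM (0.24 ± 0.10). Dendritic cell markers summed to 2874 and 3326 FPKM against 2526 and 2538 FPKM, with 4 of 15 lower and 1 higher. *Ccr7*, which guides dendritic cells to lymph nodes, went from 935 and 939 FPKM to 170 and 172 FPKM. *Clec9a* and *Xcr1*, markers of cross-presenting dendritic cells, fell by 2.09 ± 0.24 and 1.74 ± 0.17, while *Cd209a*, of dermal monocyte-derived dendritic cells, was at 551 and 686 FPKM against 1128 and 1142 FPKM (0.88 ± 0.11, under the 2-fold limit). *Siglech*, a plasmacytoid cell marker, rose by 1.30 ± 0.24, a call lost without P30 replicate 1. The Langerhans cell lectin *Cd207* (langerin) went from 158 and 140 FPKM to 36.9 and 40.5 FPKM, and was the 1 gene called of 4 on its list. Of the neutrophil markers 6 of 12 members fell and 1 rose, and *Camp* and *Ngp* were listed at 0 in both P56 libraries.

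Of 20 transcription factors of myeloid cells 5 fell and 3 rose. *Id2*, needed by dendritic and innate lymphoid cells, went from 967 and 1082 FPKM to 155 and 162 FPKM, and *Spic*, a heme-induced factor of red pulp macrophages, fell by 2.10 ± 0.14. *Csf1r*, the receptor on which macrophages depend, rose from 190 and 217 FPKM to 435 and 414 FPKM (1.06 ± 0.09), a call lost on rescaling and without P30 replicate 1. Monocyte markers were mixed, with 1 of 11 higher, *F13a1* by 1.14 ± 0.07, and 2 lower, *Plac8* among them.

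None of 28 oxidative phosphorylation members was called and their median was -0.04, with *Cox4i1* at 890 and 881 FPKM against 782 and 776 FPKM. Of 19 glycolysis and hypoxia genes 4 fell, led by the lactate carrier *Slc16a3* from 113 and 129 FPKM to 16.4 and 17.0 FPKM and by *Ndrg1* from 552 and 749 FPKM to 106 and 102 FPKM, and 1 rose. Mitosis genes had 1 of 34 higher and 1 lower, the higher gene being *Aurkb*, whose call was lost on rescaling, after quantile normalization and without P30 replicate 1, and *Mki67* was at 3.56 and 2.96 FPKM against 3.45 and 3.80 FPKM. *Cenpa*, the centromeric histone, was the gene that fell, from 258 and 289 FPKM to 55.8 and 62.6 FPKM. Among 14 clock members 4 fell, *Ciart* by 2.53 ± 0.17 and *Cry1* by 2.06 ± 0.12 among them, and *Arntl* (BMAL1) was at 4.21 and 2.57 FPKM against 8.60 and 7.65 FPKM, a call lost on rescaling, after quantile normalization and without P30 replicate 2 or P56 replicate 1. *Dbp* (-0.04 ± 0.25) and *Nr1d1* (-0.20 ± 0.14) were not called. The labels do not state the hour at which skin was taken. In the other tables the *Nr1d1* difference was 3.56 in the dermal papilla and 2.85 in the bulge, both called, and -0.28 in CD45+ cells and -0.86 in melanocytes, neither called.

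The CD45+ cells of the series, labeled immune and of the same ages, were profiled in 4 other wild type libraries. Their table was normalized on its own, so the values of the 2 cell types stand side by side and their difference was not tested. The CD45+ libraries also held keratinocyte transcripts, with *Krt14* at 616 and 679 FPKM at P30 and 677 and 599 FPKM at P56. In myeloid cells *Krt14* was at 19.0 and 21.5 FPKM against 7.94 and 8.94 FPKM. The part of other cells in the CD45+ values was not tested. Among the autosomal protein coding genes of the CD45+ table, 352 (2.91%) were higher and 878 (7.26%) lower at P56, or 10.2% in all. Of the 747 members that rose in myeloid cells and were tested in CD45+ cells, 11 were called higher there (1.47%) and 83 lower (11.1%). Of the 682 that fell, 96 were called lower there (14.1%) and 44 higher (6.45%). Of the CD45+ calls on members, 4.28% of 257 higher and 14.4% of 668 lower genes were called in the same direction in myeloid cells. Mast cell proteases fell in both, *Mcpt4* by 2.37 in CD45+ cells, and so did *Inhba* (by 3.04), *Il1b* (by 2.46) and the hair keratin *Krt71*, which fell by 6.4. *Spp1* differed by -0.30 in CD45+ cells and was not called, and *Pla2g2d* rose in both, by 1.29 in CD45+ cells. Of the 8 macrophage markers that rose in myeloid cells, 5 were called lower in CD45+ cells, *Cd163* among them at 41.6 and 40.4 FPKM at P30 and 18.1 and 18.9 FPKM at P56.

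**Figure D5:**
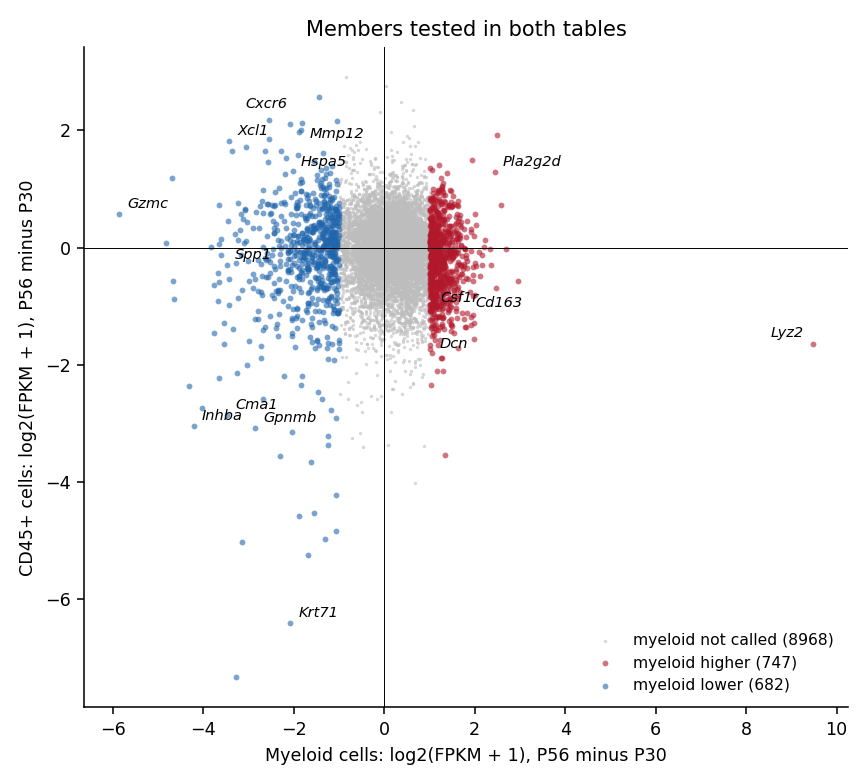
log2(FPKM + 1) difference between P56 and P30 in myeloid cells (x axis) and in CD45+ cells (y axis) for the members tested in both tables, with members called higher in myeloid cells in red (747), lower in blue (682) and others in gray. The colored points lie on both sides of the horizontal line of no difference in CD45+ cells.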

How the data were processed

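Bulk RNA was sequenced from 6 cell types of mouse dorsal skin, in 19 groups of 2 libraries. cDNA was amplified by Smart-seq2, and the authors aligned reads with STAR (2.4.2 in the submitters' processing notes) to GRCm38 (mm10), quantified genes with RSEM and deposited 1 FPKM table per cell type. RSEM divides reads that match several genes by a model, which touches near-identical copies. The tables hold no read totals, so the depth of each library and its precision are unknown. Groups follow the labels. Each gene was fitted on log2(FPKM + 1) with limma 3.58.1 (R 4.3.3, 1 mean per group, variance trend, two-sided) over the 6 myeloid libraries, and genes with 1 FPKM in at least 2 libraries were tested (12034). A gene was called at a Benjamini-Hochberg adjusted p under 0.05 and a difference of 1 or more on that scale, which understates the change of low genes. Every log2 difference is P56 minus P30 and every error after ± is an SE, with 2 libraries per age. The fit was run on simulated data with a spread taken from these same libraries. Such a run cannot test how other animals or sorts would vary. CD45+ cells, the bulge, the dermal papilla and melanocytes were fitted in their own tables, which were normalized separately.

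The genes named were the 10 largest rises and falls, up to 4 called genes per list (the 2 most abundant where none was called), a fixed set of 16 genes, and markers. A further 35 were chosen after their values were seen, among them Lyz1, Ifnb1, C1qa, C1qb, Mrc1, Folr2, Cd74, Ccl8, Pf4, Apoe and the promoter genes. The members and gene lists were chosen with earlier results of these data known, and some genes stand on more than 1 list. Some members of the lists are counted but not reported here by name. Alternatives were another pseudocount, filters, rescaling by the median ratio, quantile normalization, the wild type libraries alone, no variance trend, adjustment over the members, a replicate block and leaving out each library. Promoter windows were RefSeq sequences (GRCm38.p6) matched by symbol and searched with Python 3.11.15.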

Additional observations from a re-analysis of the deposited data

Results flagged for a closer look

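For the named genes given here the called change between P30 and P56 had opposite signs in myeloid and CD45+ cells, with all 4 libraries of each cell type apart by age. The difference between the cell types was not tested, because their tables were normalized separately. The part of other cells, such as the keratinocytes seen in the CD45+ libraries, was not tested either. The first 6 fell in myeloid cells and were higher in CD45+ cells at P56. On the log2(FPKM + 1) scale the CD45+ differences were 1.18 for *BC022687*, 1.82 for *Xcl1* (a chemokine of T and NK cells), 2.18 for the chemokine receptor *Cxcr6*, 1.3 for the chaperone *Hspa5*, 1.17 for the integrin *Itgav* and 2.13 for the elastase *Mmp12*.

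The others rose in myeloid cells and were lower in CD45+ cells. Among macrophage and monocyte genes the CD45+ differences were -1.65 for *Lyz2*, -1.11 for *Cd163*, -1.03 for *Csf1r*, -1.05 for *C1qa*, -1.05 for *C1qc*, -1.06 for *Clec10a* and -1.32 for *F13a1*. *Apoe* was at -1.07, *Tgfb1* at -1.26, the interferon-induced *Oas2* at -1.34, the mitotic kinase *Aurkb* at -1.2 and *Siglech* at -1.21. The myeloid call of *Aurkb* was lost on rescaling, after quantile normalization and without P30 replicate 1. *Dcn*, a proteoglycan of fibroblasts, was at -1.8.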

How the results depend on the processing

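Of 194 named genes 174 were called, 146 of them under every alternative that tested them, and none changed direction. With a pseudocount of 0.1 FPKM, 1288 members were called higher, 792 of them among the 798, and 898 lower. Leaving out each library in turn gave 722 to 1073 higher, 700 to 785 lower and 1468 to 1797 in all. The largest numbers of higher and of all calls came without P30 replicate 2. Where 1 library stands for an age, it is assumed to vary like the other groups. The calls of *Dcn*, *Icam1*, *Nfkbiz*, *Csf1r* and *Ccl8* were lost both on rescaling and without P30 replicate 1.

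The replicate numbers did not pair the samples. The correlations of deviations between libraries with the same number were -0.002, 0.02 and -0.009, and a fit with the replicate number as a block called 798 higher and 712 lower, 1510 in all. Limits are the 2 libraries per age, the unknown depth and sort, and the unresolved division of reads between *Lyz1* and *Lyz2*.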

Other observations

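Glucocorticoid responsive genes were mixed, with 2 of 8 members higher and 2 lower. *Sgk1*, a kinase induced by glucocorticoids, was at 77.8 and 84.2 FPKM at P30 and 18.3 and 19.1 FPKM at P56, and *Klf9* was at 3.69 and 5.09 FPKM against 13.3 and 12.8 FPKM. Among DNA replication genes 2 of 32 fell and none rose, against 6.62% lower and 7.46% higher over all members. The licensing factor *Cdt1* fell from 11.3 and 13.6 FPKM to 5.10 and 5.17 FPKM. The chromatin assembly subunit *Chaf1b* fell from 12.8 and 14.6 FPKM to 3.62 and 4.07 FPKM.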
